A study of Mus musculus with 6 samples.

Results

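The mitosis and spindle genes described here are 37 genes chosen by symbol: mitotic cyclins and kinases, checkpoint proteins, kinetochore and centromere proteins, spindle motors, and genes of cytokinesis and mitotic exit. All 37 were among the 17213 genes of the count table, all 37 passed the filter on low counts, and the lowest count of any of them in any library was 179. They were measured by RNA-seq in 6 libraries of mouse dental follicle cells, the connective tissue around the developing tooth. The cells came from mandibular molars at postnatal day 8 and were sorted for the red reporter tdTomato, which the labels equate with PTHrP-positive cells. The 3 libraries labelled Het are Pth1r(+/-) and the 3 labelled KO are Pth1r(-/-), a conditional loss of the receptor for PTH and PTHrP. Both groups carried the reporter and received a tamoxifen pulse, and both are labelled as lacking at least 1 allele. The pulse is dated to postnatal day 3 in the series text and to day 8 in the sample labels. The driver of recombination is not given in the sources used here, and separate animals are named in no label. The p-values thus reflect no more than the scatter among these libraries. They were not all repeats of a single source: Xist, the RNA expressed from the inactive X chromosome of females, was at 0.145, 78.4 and 23.7 CPM (counts relative to the TMM-scaled library total) in Het 0, 1 and 2 and at 43.8, 0.230 and 46.6 CPM in KO 0, 1 and 2. Each group thus held 1 library nearly without Xist, Het 0 and KO 1, and the part of sex in the results was not tested.

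Entry into mitosis is driven by Cdk1 bound to cyclins A and B, with the Polo and Aurora kinases. Kinetochores, protein assemblies on the centromere, attach chromosomes to spindle microtubules, and the spindle checkpoint holds anaphase until all are attached. The anaphase promoting complex, activated by Cdc20, then marks securin and cyclin B for destruction, sister chromatids separate, and the central spindle directs cytokinesis. Most transcripts of these proteins accumulate in G2 and M phase and are scarce in resting cells. In a bulk sample a larger share of dividing cells and more of these transcripts per dividing cell cannot be told apart.

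Before the results, 3 facts on the libraries are needed. The targeted gene went against the labels: Pth1r (chromosome 9, 110722085 to 110747145, minus strand, build mm10) had levels of 371, 286 and 346 CPM in Het 0, 1 and 2 and at 961, 608 and 472 CPM in KO 0, 1 and 2. Its log2 fold change was 1.02 ± 0.28 (SE) with an adjusted p of 0.740 in edgeR's quasi-likelihood test, and counts over the whole gene do not show which exons were read. Directions below compare libraries by their labels, KO over Het, and not by any measured loss of the receptor. Het 2 stood apart on the first principal component (41.8% of the variance), at 75 against -20.2 to -8.60 in the other libraries. Total counts ran from 34019925 in Het 1 to 66147200 in KO 0. Follicle genes were present, with Pthlh at 260 to 350 CPM and Postn at 431 to 879 CPM, while the leukocyte marker Ptprc was at 0.0161 to 6.13 CPM and the tendon factor Scx, also expressed in periodontal ligament, was at 0.702 to 2.23 CPM. These single genes do not measure purity. Summed over 10 markers each, dental epithelium was at 5771 to 11699 CPM and osteoblast at 21787 to 62388 CPM.

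Of the 37 mitosis genes, 32 (86.5%) were fitted higher in KO and 5 lower, against 49.0% higher among all 14632 genes tested. For the 37, the median log2 fold change (KO over Het) was 0.35, ranging from -0.29 to 0.82, and over all genes it was -0.01. None of the 37 passed an adjusted p of 0.05, neither in edgeR (0 of all 14632 genes passed, 0.0%) nor in DESeq2 (87 of 17084 genes passed, 0.509%). An unadjusted p under 0.05 was found in edgeR for Bub1 only, 2.70% of the 37 against 2.58% of all genes in the higher direction and 4.29% in either, and in DESeq2 for Bub1 and Top2a, against 6.06% of all genes. The groups did not overlap for 5 of the 37, or 13.5%, all with KO above Het (Birc5, Cenpe, Cenpf, Kif4 and Top2a), against 5.84% of all genes in that direction. The opposite separation, KO below Het, was found for 0 of the 37 and for 4.83% of all genes.

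The shift was uneven among the KO libraries. KO 0 was the highest library for 25 of the 37 genes and the lowest for 0, and 34 of the 37 lay above their own 6-library mean there. KO 2 was the highest for 3, with 30 above their mean, whereas KO 1 was the highest for 2 and the lowest for 6, with 12 above their mean. Among the Het libraries, Het 1 was the lowest for 14 genes, Het 2 for 9 and Het 0 for 7. The median deviation from the gene means, on a log2 scale, was -0.14, -0.32 and -0.02 in Het 0, 1 and 2, and 0.44, -0.12 and 0.16 in KO 0, 1 and 2. KO 1 therefore lay within the range of the Het libraries. Without KO 0 the count of higher fitted values was 29 of 37 and the median log2 fold change was 0.17. Without Het 2, the library that stood apart, these were 34 of 37 and 0.38. Unadjusted p values under 0.05 moved with the libraries used. They were found for 5 of the 37 genes without Het 0 (7.19% of all genes in either direction), 1 without Het 1 (6.51%), 4 without Het 2 (5.94%), 0 without KO 0 (2.84%), 3 without KO 1 (3.19%) and 0 without KO 2 (3.97%). With all libraries, limma-voom with quality weights gave 9 (6.53%) and a replicate block in edgeR gave 7 (6.21%). Bub1 was among these genes in 4 of the 8 fits, and no gene was among them in every fit. KO 0 was also the deepest library and Het 1 the shallowest, and the part of depth in this order was not tested.

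**Figure D1:**
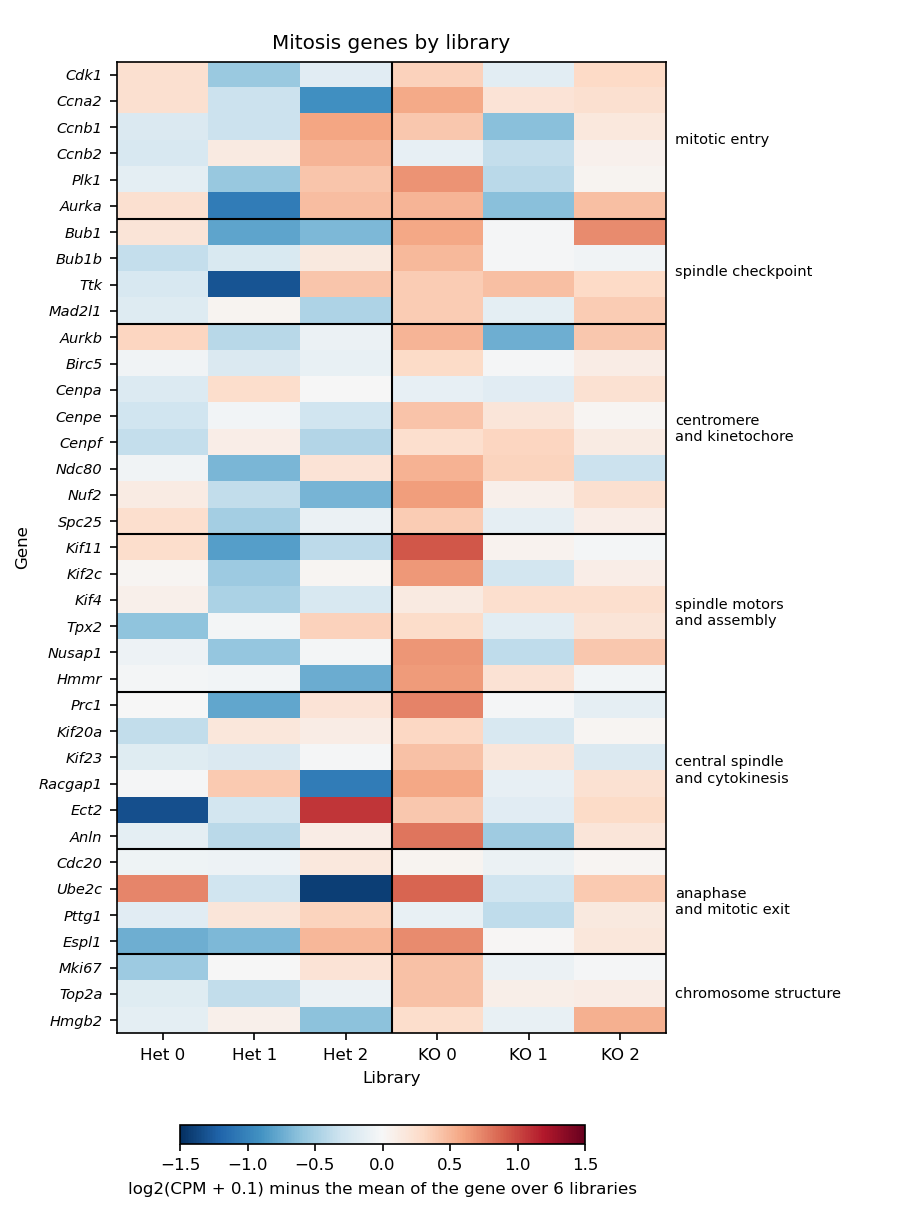
Level of each of the 37 genes (rows, grouped by role) in each library (columns), as log2(CPM + 0.1) minus the mean of that gene over the 6 libraries. KO 0 is the most uniformly high column (34 of 37 genes above their mean), and KO 1 resembles the Het columns more than KO 0.

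Mitotic entry. The 6 genes of this group were mixed, 4 fitted higher and 2 lower, and the median log2 fold change was 0.20. The sign of that median depended on single libraries: it was -0.07 without Het 1 and -0.05 without KO 0, with 3 of 6 higher in both. Ccna2 encodes cyclin A2, the partner of Cdk2 and Cdk1 in S phase and G2. Its level was 85.5, 57.9 and 38.1 CPM in Het 0, 1 and 2 and 107, 83.8 and 85.3 CPM in KO 0, 1 and 2. Het 2 was lowest and Het 0 lay within the KO values, so the groups overlapped. The means were 60.5 ± 23.8 and 92.1 ± 13 CPM (SD, n = 3 libraries each), with a log2 fold change of 0.60 ± 0.29 (SE) and an edgeR adjusted p of 0.976. Its counts were 89.1% of the authors' estimated counts, the lowest such share among the 37, and its exons overlap those of Exosc9. The B-type cyclins, which bring Cdk1 to full activity, did not share this pattern. Ccnb2 was at 74.8, 96.7 and 125 CPM in Het 0, 1 and 2 and at 81.2, 69.0 and 92.1 CPM in KO 0, 1 and 2, highest in Het 2 and lowest in KO 1. Its log2 fold change of -0.29 ± 0.23 (edgeR adjusted p = 0.976) was the lowest of all 37 with all libraries, and without Het 2 it was -0.09, above the -0.12 of Pttg1. Ccnb1 was at 74.5, 68.9 and 130 CPM against 115, 56.0 and 96.3 CPM, with the highest value in Het 2 and the next in KO 0, and a log2 fold change of -0.04 ± 0.33. Without Het 2 that value was 0.31. Cdk1, the kinase itself, was at 54.5, 31.3 and 41.2 CPM in the Het libraries and at 58.6, 41.5 and 57.1 CPM in the KO libraries. Het 0 lay among the KO values, and the log2 fold change was 0.31 ± 0.26 (edgeR adjusted p = 0.976). It was 0.13 without Het 1 and 0.53 without Het 0. Plk1, the Polo-like kinase, and Aurka, the Aurora kinase of the spindle poles, had log2 fold changes of 0.22 and 0.18, smaller than their standard errors of 0.34 and 0.42.

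Spindle checkpoint. All 4 checkpoint genes were fitted higher, and their median log2 fold change was 0.51, between 0.41 and 0.57 with 1 library left out. It was the highest of the 7 role groups with all libraries, but without Het 0 spindle motors and assembly factors were higher, at 0.56 against 0.50. Bub1, a checkpoint kinase that also marks centromeric chromatin (chromosome 2, 127801122 to 127831865, minus strand), was at 17.8, 8.99 and 9.69 CPM in Het 0, 1 and 2 and at 23.4, 15.4 and 25.5 CPM in KO 0, 1 and 2. Het 1 and Het 2 were below every KO library, while Het 0 lay above KO 1. Means were 12.2 ± 4.88 and 21.4 ± 5.31 CPM, and the log2 fold change of 0.82 ± 0.35 was the largest of the 37. Its unadjusted p was 0.0460 in edgeR and 0.0323 in DESeq2, and its adjusted p was 0.976 and 0.730. Without Het 0 the fold change was 1.19, and in the other fits with 1 library left out it was 0.64 to 1.01. Mad2l1, whose product sequesters Cdc20 until kinetochores are attached, was at 29.4, 34.8 and 24.5 CPM against 44.1, 30.5 and 43.8 CPM. KO 1 again lay among the Het values, and the log2 fold change was 0.42 ± 0.24. By median deviation over the 4 checkpoint genes, KO 1 was above the Het libraries, at -0.01 against -0.50 to -0.15. That also held for the centromere and kinetochore genes (0.03 against -0.30 to -0.05), but for none of the other role groups. Ttk, the Mps1 kinase that starts checkpoint signalling, and Bub1b, which encodes BubR1, had log2 fold changes of 0.60 and 0.29. For Ttk the KO libraries were close together at 16.1, 17.0 and 15.3 CPM, while the Het libraries spread over 10.4, 4.98 and 16.5 CPM.

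Centromere and kinetochore. Of 8 genes, 7 were fitted higher and 1 lower. The median log2 fold change was 0.30 (0.18 without Het 1 and 0.19 without KO 0), and 3 of the 5 genes without overlap were in this group. Nuf2 encodes a subunit of the Ndc80 complex, the microtubule-binding part of the kinetochore. Its values were 26.1, 18.6 and 14.8 CPM in Het 0, 1 and 2 and 37.3, 25.3 and 28.4 CPM in KO 0, 1 and 2, with Het 0 just above KO 1. The log2 fold change was 0.61 ± 0.28 (edgeR adjusted p = 0.976). Its partners in the complex, Ndc80 and Spc25, had smaller values of 0.35 and 0.21. Cenpf, a large kinetochore protein that accumulates in G2, was at 40.6, 56.0 and 38.5 CPM against 62.3, 65.3 and 56.8 CPM. The lowest KO value exceeded the highest Het value by less than 1 CPM, and the log2 fold change was 0.45 ± 0.21. Cenpe, a kinesin of the kinetochore, was at 29.2, 34.8 and 29.0 CPM against 48.1, 40.5 and 36.5 CPM, a log2 difference of 0.43 ± 0.21. Birc5, which encodes survivin of the chromosomal passenger complex, had the narrower spread of 55.9, 49.8 and 54.0 CPM against 70.9, 57.6 and 62.9 CPM, with a log2 fold change of 0.26 ± 0.18. Aurkb, the kinase of the same complex, was more scattered, from 31.2 CPM in KO 1 to 73.6 CPM in KO 0, and Cenpa, the histone H3 variant of centromeres, was nearly level between groups at 74.4 ± 12.3 and 72.1 ± 11.2 CPM.

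Spindle motors and assembly factors. All 6 were fitted higher (median log2 fold change 0.45, and 0.29 without KO 0). Kif11, the kinesin that pushes spindle poles apart, was at 30.1, 14.1 and 19.1 CPM in Het 0, 1 and 2 and at 47.9, 26.1 and 24.6 CPM in KO 0, 1 and 2. KO 0 stood far above all other libraries, and Het 0 exceeded both KO 1 and KO 2. The log2 fold change of 0.63 ± 0.36 (edgeR adjusted p = 0.976) became 0.28 without KO 0 and 0.97 without Het 0. Hmmr, a microtubule-associated spindle protein, was at 29.4, 29.0 and 17.9 CPM against 46.5, 34.7 and 29.1 CPM, with a log2 fold change of 0.53 ± 0.28. KO 2 was level with Het 0 and Het 1. The chromokinesin Kif4 did not overlap between groups, at 16.8, 11.5 and 13.5 CPM against 17.5, 18.9 and 19.0 CPM, and was 1 of the 12 genes not highest in KO 0. Nusap1, Kif2c and Tpx2, which bundle, depolymerise and nucleate spindle microtubules, had log2 fold changes of 0.50, 0.35 and 0.16.

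Central spindle and cytokinesis. The 6 genes were all fitted higher (median log2 fold change 0.33), and in each of them the groups overlapped. Without KO 0 the median was 0.05 and 4 of 6 were higher. Kif23, the kinesin of the centralspindlin complex, was at 32.1, 31.4 and 36 CPM in Het 0, 1 and 2 and at 49.4, 41.4 and 31.3 CPM in KO 0, 1 and 2. KO 2 was level with Het 0 and Het 1, and the log2 fold change was 0.30 ± 0.23. Prc1, which bundles antiparallel microtubules of the central spindle, was at 72.8, 42.6 and 84.3 CPM against 123, 72.1 and 66.7 CPM. Its log2 fold change of 0.39 ± 0.32 was 0.08 without KO 0 and 0.15 without Het 1. Anln, the scaffold protein anillin of the contractile ring, likewise went from 0.38 to 0.01 without KO 0. Racgap1, the GTPase-activating subunit of centralspindlin, had a log2 fold change of 0.36 that became 0.05 without Het 2 and 0.18 without KO 0. Ect2, the exchange factor that activates RhoA for the contractile ring, varied most among the 37, by 5.31-fold from 6.85 CPM in Het 0 to 36.4 CPM in Het 2. Its fold change was near 0 with all libraries (0.04 ± 0.53) and 0.90 without Het 2. Ect2, Anln and Racgap1 were singled out after their values were seen.

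Anaphase and mitotic exit. Here 2 genes were fitted higher and 2 lower, with a median of 0.23 that was 0.08 without Het 2 or without KO 0. Espl1, which encodes separase, the protease that cuts cohesin, was at 6.43, 6.71 and 15.1 CPM in Het 0, 1 and 2 and at 17.6, 10.9 and 12 CPM in KO 0, 1 and 2. Het 2 lay among the KO values, and the log2 fold change of 0.52 ± 0.42 was 1.04 without Het 2 and 0.30 without KO 0. Pttg1, which encodes securin, the inhibitor of separase, went the other way at 30.7, 39.1 and 43.6 CPM against 31.9, 26.6 and 38.2 CPM, a log2 fold change of -0.23 ± 0.23. Cdc20 varied least of all, by 1.19-fold over the 6 libraries, at 78.8 ± 7.38 and 78.2 ± 4.02 CPM. Ube2c, the ubiquitin-conjugating enzyme of the anaphase promoting complex, spread from 15.3 CPM in Het 2 to 74.6 CPM in KO 0 and overlapped widely, and its log2 fold change of 0.47 ± 0.50 became 0.09 without Het 2, 0.17 without KO 0 and 1.14 without Het 0. Cdc20 and Ube2c were singled out after their values were seen.

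Chromosome structure. All 3 genes were fitted higher (median log2 fold change 0.43). Top2a, the topoisomerase that disentangles sister chromatids (chromosome 11, 98992943 to 99024189, minus strand), was at 80.2, 70.6 and 86.1 CPM in Het 0, 1 and 2 and at 124, 96.5 and 98.2 CPM in KO 0, 1 and 2. Every KO library was above every Het library, with means of 79.0 ± 7.82 and 106 ± 15.3 CPM. The log2 fold change was 0.43 ± 0.19 with an unadjusted p of 0.0510 and an adjusted p of 0.976 in edgeR, and it stayed between 0.32 and 0.50 in the fits with 1 library left out. Mki67, the proliferation antigen that coats mitotic chromosomes, was at 42.0, 61.3 and 71.1 CPM against 83.2, 58.0 and 60.8 CPM. KO 1 and KO 2 lay inside the Het range, and the log2 fold change of 0.21 ± 0.25 was 0.04 without KO 0 and 0.02 without Het 0. Hmgb2, a DNA-bending protein of the high mobility group, was at 205, 238 and 147 CPM against 271, 209 and 328 CPM, highest in KO 2 and lowest in Het 2, with a log2 fold change of 0.45 ± 0.25.

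**Figure D2:**
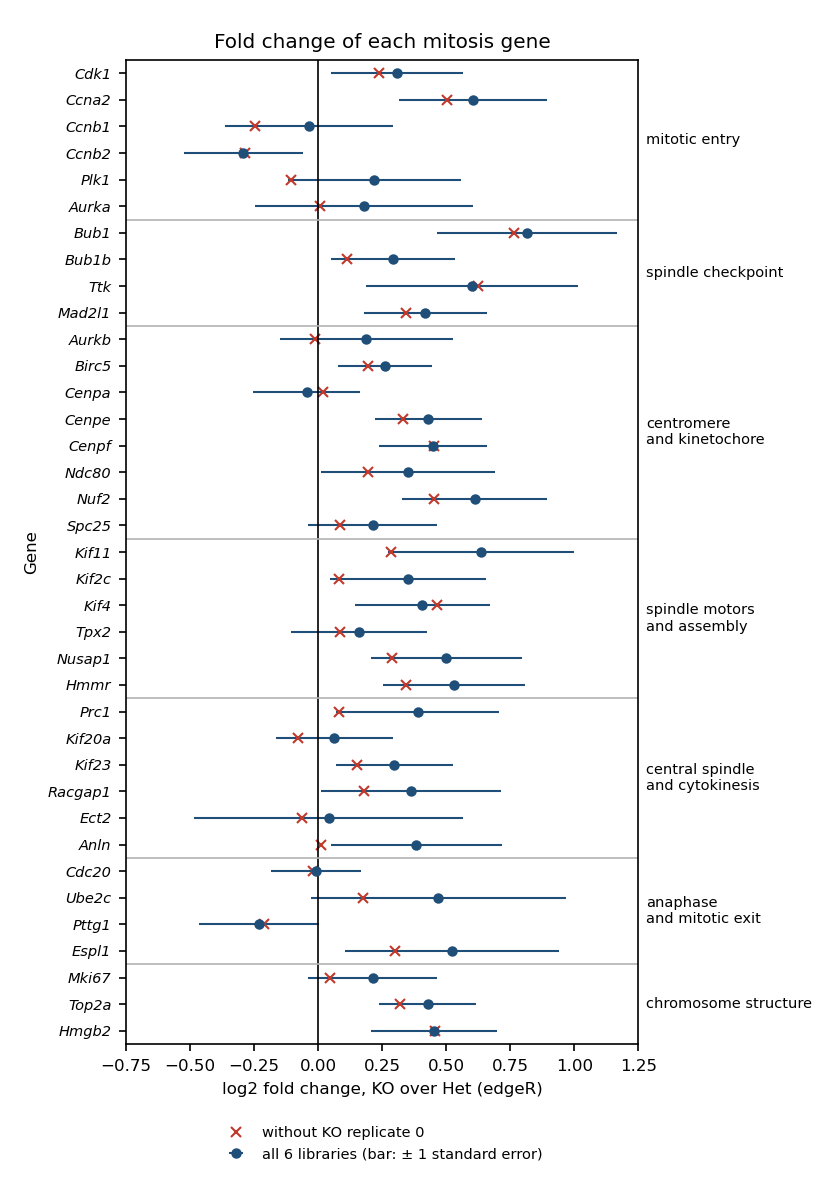
Log2 fold change (KO over Het, edgeR) of each of the 37 genes with all 6 libraries (points, bars ± 1 standard error) and without KO 0 (crosses), grouped by role. With all libraries 32 of 37 points lie above 0, with a median of 0.35, and without KO 0 29 of 37 do, with a median of 0.17.

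Levels per transcript length were compared on the authors' FPKM values (fragments scaled by transcript length and library depth), as means over the 6 libraries. Hmgb2 was the highest at 73.9 ± 26.9 FPKM (SD, n = 6), followed by Birc5 at 64.0 ± 9.62, Ccnb2 at 60.7 ± 15.2, Ube2c at 58.9 ± 27.9, Cenpa at 57.9 ± 9.05, Pttg1 at 54.8 ± 11.4, Cdc20 at 50.1 ± 7.83 and Ccnb1 at 35.1 ± 8.67 FPKM. Neighbours in this order differed by less than the larger of their SDs, except that Ccnb1 was below Cdc20 by more than either SD. The other 29 genes were at 1.73 to 30.1 FPKM, with Espl1, Kif4 and Bub1 the lowest at 1.73, 2.99 and 3.22 FPKM. The 5 genes with lower fitted values, Ccnb2, Pttg1, Cenpa, Ccnb1 and Cdc20, were all among these 8, which had a median log2 fold change of -0.02. The other 29 were all fitted higher, and their median was 0.38. The cut at 8 falls at Ccnb1, the lowest in FPKM of the 5, so that no gene below it was fitted lower follows from the cut. Of the 5, Cenpa, Ccnb1 and Cdc20 were near 0, at -0.04 ± 0.21, -0.04 ± 0.33 and -0.01 ± 0.18 (SE). Ranked across the 37 genes, fold change and FPKM had a Spearman rho of -0.46, and fold change and annotated exon length one of 0.39. In the 70 of the other mitosis genes with a length and FPKM the same values were -0.33 and 0.05, and over 13198 tested genes they were -0.06 and 0.10. Genes are not independent replicates, all fold changes share the same 6 libraries, and this split by level was noticed after the values were seen.

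**Figure D3:**
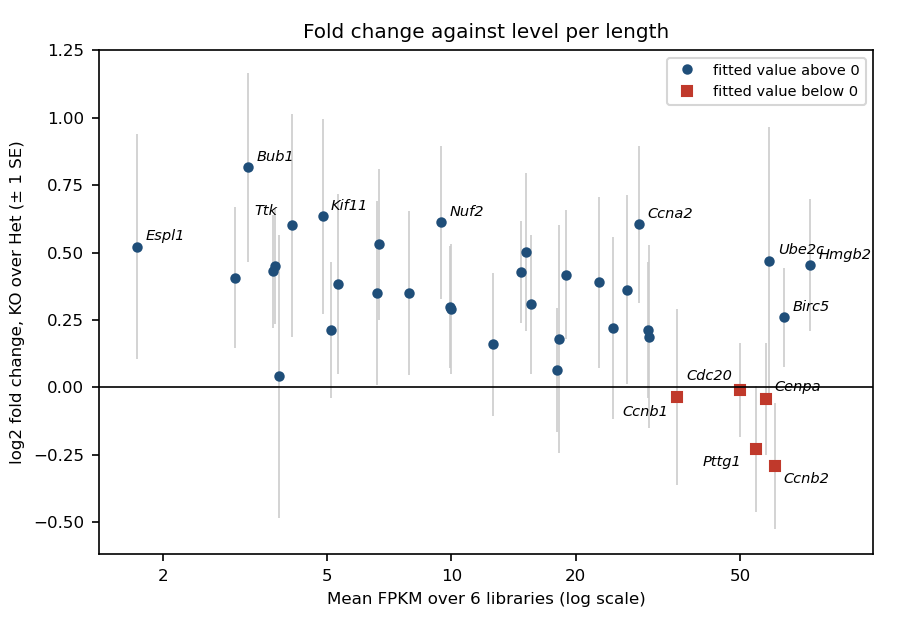
Log2 fold change (KO over Het, ± 1 standard error) of the 37 genes against their mean FPKM over 6 libraries on a log axis. The 5 genes with fitted values below 0 (squares) are all among the 8 with the highest FPKM.

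A feature shared by these genes that the choice by symbol did not use is the promoter sequence. RefSeq promoter windows (GRCm38.p6, the mm10 assembly, 250 bases before to 50 after the annotated start) matched 33 of the 37 genes, all but Ccna2, Aurkb, Tpx2 and Kif20a. The windows of Kif2c, Kif4 and Pttg1 lay wholly inside the gene as annotated by GENCODE. For Kif2c (minus strand) the window was chr4:117178723-117179022 and the GENCODE start 117182639. For Kif4 (plus strand) they were chrX:100625815-100626114 and 100625737, and for Pttg1 (minus strand) chr11:43425932-43426231 and 43426251. The windows of Mad2l1 and Hmgb2 ended before the GENCODE start. All of these windows are counted below, although none holds the GENCODE start of its gene. Windows were searched for TTTGAA, a form of the cell cycle genes homology region that the MuvB complexes bind, and for CCAAT, the box bound by the factor NF-Y. Both strands were read, so that matches include the reverse complements, TTCAAA for the homology region and ATTGG for the box. TTTGAA was present for 25 of 33 genes (75.8%), against 20.2% of 27025 genes with a window and 14.3% of those tested here. CCAAT was likewise present for 25 of 33 (75.8%), against 41.1% of all genes, and both were present for 22 (66.7%) against 8.97%. Among the other mitosis genes both were present for 26 of 66 (39.4%). In the members' windows 26 of 35 TTTGAA matches (74.3%) began within 50 bases of the start site, against 25.3% of 6737 matches in all windows, counting the same sites of Prc1 and of Ect2 in each of their overlapping windows. The only matches that overlapped each other were a CCAAT and an ATTGG of Ube2c. A match is a run of letters, not a measured binding site. TTTAAA was also searched and was present for 9 of 33 genes (27.3%), against 14.9% of all genes and 11.2% of those tested. It was neither marked in capitals nor used to group the genes, and a window without TTTGAA may hold another form of the homology region. Stretches from 120 bases before to 30 after the start are shown for the B-type cyclin Ccnb2 with the lowest fold change, for Cdk1, Spc25, Hmmr and Top2a as examples of CCAAT followed by TTTGAA, and for Bub1, which had the largest fold change and no TTTGAA in its window. Each reads 5′ to 3′ on the strand of the gene, and capitals mark both motifs and their reverse complements.
Ccnb2 (chr9:70421525-70421674, minus strand): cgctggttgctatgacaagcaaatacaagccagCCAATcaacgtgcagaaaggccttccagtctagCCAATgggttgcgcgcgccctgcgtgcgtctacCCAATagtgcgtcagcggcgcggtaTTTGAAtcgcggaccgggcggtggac
Cdk1 (chr10:69352883-69353032, minus strand): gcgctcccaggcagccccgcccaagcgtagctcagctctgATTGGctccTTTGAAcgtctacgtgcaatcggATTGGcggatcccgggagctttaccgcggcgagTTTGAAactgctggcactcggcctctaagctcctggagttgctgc
Spc25 (chr2:69206184-69206333, minus strand): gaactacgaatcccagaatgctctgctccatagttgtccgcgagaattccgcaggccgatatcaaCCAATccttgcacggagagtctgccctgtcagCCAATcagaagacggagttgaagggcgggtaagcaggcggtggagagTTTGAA
Hmmr (chr11:40733408-40733557, minus strand): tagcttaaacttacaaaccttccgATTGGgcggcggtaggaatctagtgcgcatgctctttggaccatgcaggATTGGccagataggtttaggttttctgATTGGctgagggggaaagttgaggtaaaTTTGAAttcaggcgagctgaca
Top2a (chr11:99024160-99024309, minus strand): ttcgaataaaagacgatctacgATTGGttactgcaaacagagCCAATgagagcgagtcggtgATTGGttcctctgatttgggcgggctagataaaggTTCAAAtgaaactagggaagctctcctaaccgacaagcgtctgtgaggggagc
Bub1 (chr2:127831830-127831979, minus strand): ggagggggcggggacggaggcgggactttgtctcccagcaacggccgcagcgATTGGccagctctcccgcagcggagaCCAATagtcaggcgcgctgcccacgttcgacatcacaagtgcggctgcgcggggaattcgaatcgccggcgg

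In Ccnb2 the CCAAT boxes began 87, 54 and 21 bases before the start and TTTGAA began at base 5 after it. Spc25 had CCAAT at 55 and 23 bases before and TTTGAA at base 25. A difference in fold change by motif was not tested. Grouped by the letters in their windows, the 22 genes with both TTTGAA and CCAAT had a median log2 fold change of 0.34 (19 higher and 3 lower). For the 6 with 1 of them it was 0.37 (5 higher and 1 lower). For the 5 with neither, namely Mad2l1, Birc5, Nuf2, Nusap1 and Pttg1, it was 0.42 (4 higher and 1 lower). The windows of Mad2l1 and Pttg1 did not hold the GENCODE start, so the motifs may be present there unread. Kif2c, Kif4 and Hmgb2 in the other groups had the same limit.

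Of 80 other genes of mitosis, 65 were fitted higher and 15 lower (median log2 fold change 0.31). By edgeR 0 of the 80 passed the adjusted threshold, 11 had an unadjusted p under 0.05, all higher (13.8% against 2.58% of all genes in that direction), and the groups did not overlap for 17, all with KO above Het (21.3% against 5.84%). Aspm, a spindle pole protein named for its role in microcephaly, was at 8.65, 7.27 and 9.75 CPM in Het 0, 1 and 2 and at 21.5, 19.4 and 14.6 CPM in KO 0, 1 and 2, a log2 fold change of 1.11 ± 0.29 (adjusted p = 0.740 in edgeR and 0.0582 in DESeq2). Cenpi, a centromere protein, was at 13.3, 7.77 and 5.95 CPM against 21.2, 21.5 and 17.9 CPM. Kif18a, a kinesin that limits chromosome oscillation, was at 3.89, 2.76 and 0.309 CPM against 12.4, 9.78 and 12.1 CPM, a log2 fold change of 2.29 ± 0.74. These 3 genes were named for the smallest unadjusted p of the list, a choice that favours separated groups. In them every KO library was above every Het library, and KO 1 was the lowest KO library for Kif18a only. KO 0 was the highest library for 32 of the 80, KO 2 for 21, Het 2 for 16 and KO 1 for 6. The median log2 deviation of the 80 in KO 1, -0.01, was above the -0.22 to -0.06 of the Het libraries. Their summed CPM in KO 1, 2358, lay within the Het range of 2119 to 2674. Without KO 0, 62 of the 80 were fitted higher (median 0.25).

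The regulators of these genes and the neighbouring phases gave mixed values. Among 19 transcription factors of the cell cycle, 12 were fitted higher and 7 lower (median log2 fold change 0.12). Foxm1, which activates G2 and M phase genes, was at 28.3, 18.5 and 17.1 CPM in Het 0, 1 and 2 and at 50.5, 33.2 and 28.3 CPM in KO 0, 1 and 2, with KO 2 level with Het 0 and a log2 fold change of 0.81 ± 0.30 (edgeR adjusted p = 0.976). Mybl2, its partner on these promoters, was at 32.0 ± 8.82 against 46.9 ± 11 CPM. E2f2, an activating E2F, was at 9.46, 6.54 and 6.77 CPM against 16.4, 17.0 and 16.6 CPM, a log2 fold change of 1.13 ± 0.29 with an adjusted p of 0.734 in edgeR and 0.0342 in DESeq2. It was the only gene of the cell cycle lists that passed in DESeq2, where 0.509% of all genes passed. Of 15 replication licensing and S phase genes 14 were higher, with a median of 0.40, led by Mcm3, Mcm5 and Mcm7 at log2 fold changes of 0.71, 0.65 and 0.46. By library this list followed the mitosis genes, with median deviations of 0.44 and 0.39 in KO 0 and KO 2 and -0.26 in KO 1. The subunits of the anaphase promoting complex, which are made through the cycle, did not share the shift: 5 of 15 were higher, with a median of -0.11, and Anapc15, Anapc11 and Anapc4 had log2 fold changes of 0.45, -0.27 and -0.30. Of 9 G1 cyclins and kinases 5 were higher, with a median of 0.06, and Ccnd1, Ccnd2 and Cdc25a had values of 0.39, -0.39 and 0.46. Of 13 tested cell cycle inhibitors 6 were higher, with a median of -0.07. Cdkn1c, the inhibitor p57, was at 842, 452 and 516 CPM against 443, 442 and 348 CPM, with Het 0 far above all other libraries. Its log2 fold change was -0.55 ± 0.26, while Gadd45a and Gadd45b had values of -0.55 and 0.62. Cdkn1c was the only 1 of the 13 with every KO library below every Het library, a separation found for 4.83% of all genes. In edgeR 0 genes of these 5 lists passed. An unadjusted edgeR p under 0.05 was found for Foxm1 and E2f2 (10.5% of the 19) and for Mcm3 and Mcm5 (13.3% of the 15). All were higher, against 2.58% of all genes in that direction, and the other lists held no such gene. The small medians changed sign when 1 library was left out: without Het 2 they were 0.03 for the complex subunits, -0.04 for the transcription factors and 0.01 for the inhibitors, and without KO 0 the G1 median was -0.01.

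**Figure D4:**
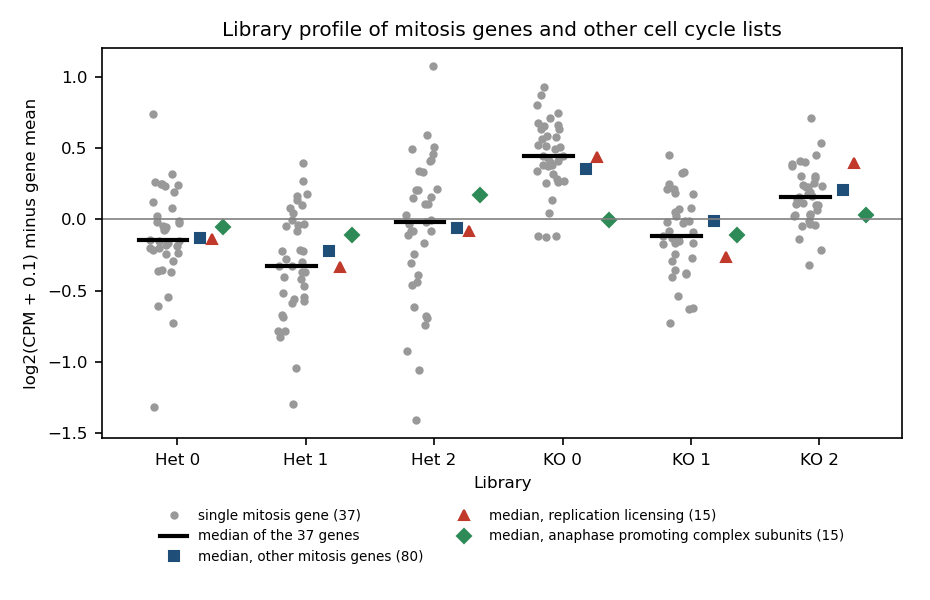
Deviation of log2(CPM + 0.1) from the 6-library mean for each of the 37 genes (grey points), with their median (black bar) and the medians of 80 other mitosis genes, 15 licensing genes and 15 anaphase promoting complex subunits. The first 3 medians are highest in KO 0, and the last is near 0 there.

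Sorted cells can hold other dividing cells, so marker lists were read beside the same libraries. Summed over 14 macrophage and leukocyte markers, CPM was 26.0 to 114 in the Het libraries and 33.9 to 189 in the KO libraries (13 of 14 fitted higher), and KO 0, where the mitosis genes were highest, was at 33.9. Erythroid markers (6 in the table) summed to 32.4 to 104.7 and 44.5 to 129 CPM, with KO 0 at 44.5, and 9 neutrophil precursor markers to 7.09 to 492 and 88.7 to 290 CPM, with KO 0 at 88.7. In these 3 lists KO 0 had the lowest sum of the KO libraries. KO 2, next in mitosis genes, had the highest leukocyte sum of all 6 libraries, 189 CPM, with 10 of 14 markers highest there. Leaving out KO 2, 7 of the 14 leukocyte markers were fitted higher, with a median log2 fold change of 0.07 against 0.92 with all libraries. In edgeR with all libraries 0 of the 14 had an unadjusted p under 0.05. In KO 2 the erythroid and neutrophil precursor markers were also read. The erythroid sum of KO 2 was 128.8 CPM, and its neutrophil precursor sum, 290 CPM, was the highest of the KO libraries. The leukocyte markers Ptprc and Adgre1 (Emr1 in the table) were at 1.07 and 0.0657 CPM in KO 0, and Adgre1 had 0 counts in Het 0 and Het 2. Endothelial markers summed to 18.3 to 49.9 and 14.3 to 21.3 CPM, again with KO 0 lowest. Dental epithelium markers were abundant, at 5836 to 9010 and 5771 to 11699 CPM, with KO 0 at 9292, but the sum was carried by a few genes: 0 of the 10 were highest in KO 0, and their median log2 deviation there, -0.51, was the lowest of the 6 libraries. All 10 osteoblast markers were fitted higher, and their sum was 21787 to 35191 and 36924 to 62388 CPM, highest in KO 0, the library with the highest mitosis genes. In KO 2, next in mitosis genes, the osteoblast sum was the lowest of the KO libraries. Follicle and ligament markers summed to 13445 to 17553 and 13131 to 21920 CPM, and odontoblast and pulp markers to 530 to 797 and 535 to 927 CPM. These sums were highest in KO 0, but most markers did not follow them: 1 of 12 follicle and ligament markers was highest in KO 0 and 6 were highest in Het 2. Of the 12, 7 were fitted lower. In 3 of the 12 every KO library was below every Het library, a separation found for 4.83% of all genes. The median deviation of the follicle and ligament markers in KO 0, 0.04, was below the 0.14 to 0.32 of the Het libraries, and that of the odontoblast and pulp markers was highest in KO 1, at 0.58. The part of these cell types in the mitosis values was not tested.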

How the data were processed

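The submitters' processing notes name mm10, HTSeq, DESeq2, Cuffdiff, Cufflinks, Bowtie2 2.2.1, TopHat2 2.0.13 and FastQC. What each tool did, and with which annotation and strand setting, is not given in the sources used here. Per the labels' protocols, RNA of sorted cells was amplified with a SMART-Seq kit. That chemistry adds no molecular identifiers, so reads are not independent molecules. The deposited raw counts (17213 genes) were the main data. Deposited estimated counts (23107 genes, 1.66% of values not whole within 1e-06, rounded) and deposited FPKM served as alternatives, and FPKM also for levels per length. The other deposited tables, scaled or log-transformed counts, were not used.

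The main test was edgeR 4.0.16 (R 4.3.3; quasi-likelihood, TMM, default filter, 14632 genes, two-sided, Benjamini-Hochberg over all genes, threshold 0.05), without a block. CPM are TMM-scaled; standard errors come from the F statistic. The script was tested on simulated data. Alternatives were RLE or no scaling factors, no or a stricter filter (1 CPM in 3 libraries), DESeq2 1.42.0, limma 3.58.1 (voom with quality weights; trend on log2(FPKM + 1) and log2(FPKM + 0.1)), estimated counts, a replicate block and each library left out. DESeq2 without Het 2 was chosen after seeing the data.

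The members and lists were chosen with earlier results of these data known. Per-library values are given for Mki67, Top2a, Cdk1, Ccnb1 and the 2 genes of smallest p in each role, others being named after their values were seen, and for other lists up to 3 genes of smallest p. Positions and exons came from GENCODE M21. Exons of 7 members overlap those of another counted gene (Ccna2, Kif4, Nusap1, Prc1, Kif20a, Cdc20 and Ube2c), whose reads may not be told apart. For 36 of the 37, summed counts were within 5% of the estimated counts.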

Additional observations from a re-analysis of the deposited data

How the results depend on the processing

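In all 18 alternative fits 0 of the 37 genes passed an adjusted p of 0.05, between 29 and 35 had higher fitted values, and their median log2 fold change was 0.17 (without KO replicate 0) to 0.46 (limma-voom). Over all genes, calls were 0 in edgeR, 87 in DESeq2, 175 in DESeq2 without Het replicate 2, and 1 in limma-voom, in each of the 3 FPKM fits and without Het replicate 0; leaving out 1 library gave 0 to 1. In the other cell cycle lists DESeq2 called 1 gene, and 3 without Het replicate 2. Pth1r passed in DESeq2 without Het replicate 2 (log2 fold change 1.05, adjusted p = 0.0223), and leaving out 1 library in edgeR gave 0.71 to 1.23, with no call. Ccnb1 changed sign in limma-voom (0.30), in DESeq2 without Het replicate 2 (0.31) and without Het replicate 2 (0.31) or KO replicate 1 (0.21), and over all fits with 1 library left out it was -0.25 to 0.31. With the replicate block 0 genes passed, 7 of the 37 had an unadjusted p under 0.05 (6.21% of all genes), and 32 of 37 were higher with a median of 0.33. The main fit had no block because the replicate numbers are not said to be litters or days. Same-numbered libraries had deviations correlated at 0.17, 0.07 and 0.07, and each Het library correlated best with the KO library of its own number. Whether the numbers mark pairs was not tested. With 3 libraries a group and standard errors of 0.18 to 0.53, the log2 differences seen here passed the threshold for 0 of the 37 genes. Whether this design could detect differences of that size one gene at a time was not tested.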

Other observations

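The 37 genes scattered most around their own means in Het 2, with a standard deviation of log2 deviations of 0.51 there against 0.21 to 0.38 in the other libraries. Ect2 was 1.08 above and Ube2c 1.41 below its mean in Het 2. Over 8749 tested genes of the same CPM range the standard deviation was 0.58 in Het 2 and 0.30 to 0.34 elsewhere, so Het 2 was the most scattered library for both. Summed over the 37 genes, CPM was 1756, 1675 and 1808 in Het 0, 1 and 2 and 2476, 1719 and 2148 in KO 0, 1 and 2, and KO 1 lay between the Het values.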
